A study of Mus musculus with 12 samples.

Results

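Gene expression was compared between cortical Sst-neurons and Thy1-neurons of mice that had both received nicotine. The members are the 5 nicotine libraries of the count table, namely Sst+Nic replicates 2 and 3 and Thy1+Nic replicates 1, 2 and 3, of 10 libraries in the table and 12 described for the series. Replicate 1 of Sst+Nic was not analysed here. Sst+Nic cells were somatostatin (Sst) interneurons of GIN mice on an FVB background, a line in which a Gad promoter drives enhanced green fluorescent protein in a group of these interneurons. Thy1+Nic cells were layer V pyramidal neurons of YFPH mice on a B6 background, in which the Thy1 promoter drives yellow fluorescent protein. All mice were male, weighed 20 g and were 5 to 7 weeks old, and a subcutaneous osmotic mini pump gave nicotine hydrogen tartrate at 48 mg/kg/d for 14 days. Saline-treated mice of the same lines (Sst, 3 libraries, and Thy1, 2 libraries in the table) are used below for a side-by-side view, for the interaction with nicotine and in an alternative fit of all libraries. Each library came from the cells of 1 mouse, 30 cells picked by hand under fluorescence. Cell type, mouse line and strain background are 1 split in this design, so that a difference of cell type and a difference of strain or transgene cannot be told apart. In pooled cells, fewer cells of a type and less RNA per cell cannot be told apart either.

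Sst interneurons are inhibitory cells that release GABA together with the peptide somatostatin, and many of them contact the dendrites of pyramidal cells. Layer V pyramidal neurons are excitatory, glutamatergic cells with long axons that leave the cortex. Nicotine acts on nicotinic acetylcholine receptors, ligand-gated cation channels that several cortical interneuron types carry, and the question here was which genes separated the cell types while the drug was present.

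Totals per library ran from 2915738 to 4878326 counted fragments, and the limit that 0 counts allow (3 counts) was 0.615 to 1.03 CPM, that is, counts scaled to 1000000 per library. Such limits and the intervals below cover counting error only. Gene names in the count table hold only for the 13 mitochondrially encoded genes and for entries on 4 stretches of the GRCm38 genome, the beginnings of chromosome 16 (to 88.3 Mb), chromosome 8 (to 15 Mb), chromosome 19 (to 6.4 Mb) and chromosome 7 (to 3.3 Mb). Of 12 genes that every neuron uses and that lie elsewhere, 9 were under 1 CPM in all 5 nicotine libraries and the highest value was 9.02 CPM. Genes are therefore named only from these stretches, which held 1018 entries (719 on chromosome 16), or 1031 with the mitochondrially encoded genes, and 725 of these had a count in the nicotine libraries. The defining GABA and glutamate transmission genes of the labelled cell types lie outside the stretches and could not be checked. Across 6509 entries, log2 CPM correlated at 0.786 between the Sst+Nic libraries, at 0.776 to 0.785 among the Thy1+Nic libraries and at 0.664 to 0.701 between the groups.

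Of the 6509 entries that passed the filter on low counts, 33 (0.507%) were DEGs between Sst+Nic and Thy1+Nic, 15 of them (0.23%) higher and 18 (0.277%) lower in Sst+Nic. A DEG had an adjusted p-value under 0.05 in the quasi-likelihood test of edgeR and an absolute log2 fold change above 1. Among the 576 named entries tested, 10 were DEGs. Gm5607, Masp1, Dgkg, Gm3375 and Sst were higher in Sst+Nic, and Fam131a, Rin1, Bcl6, Plcxd2 and Dlg1 were lower. Library scaling moved the balance: with the totals alone as library sizes, without TMM factors, 17 entries were higher and 7 lower (6 and 3 of the named ones). That scaling shifted the median log2 fold change of all entries from 0.09 to 0.59, and the fold changes given here are relative to a median near 0.

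Sst, which encodes the peptide that names the interneurons, lies on chromosome 16 (23889573 to 23891342, minus strand). Its promoter window holds the letters TGACGTCA, known as the cyclic AMP response element, a palindrome read alike on both strands. The stretch is printed because Sst had the largest fold change among the named DEGs. The letters start 48 bases before an annotated start of Sst, and the 30 bases at chr16:23890874-23890903 (GRCm38, minus strand, RefSeq) read as follows, with these letters in capitals.
Sst: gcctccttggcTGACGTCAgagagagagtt
The same 8 letters stood in 1.79% of the 32851 RefSeq promoter windows searched on either strand (250 bases before to 50 after a start). Promoter windows were at hand for 8 of the 10 named DEGs, and Sst was the 1 gene among them with these letters. Sst stood at 53779 and 64640 CPM in Sst+Nic replicates 2 and 3, and at 49.2, 2.36 and 1.77 CPM in Thy1+Nic replicates 1, 2 and 3. All Sst+Nic values lay far above all Thy1+Nic values, while Thy1+Nic replicate 1 stood above the other Thy1+Nic libraries, whose 95% Wilson intervals were 1.28 to 4.35 and 0.810 to 3.86. The log2 fold change was 11.19 ± 1.59 (SE, adjusted p = 0.0356 by edgeR).

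Gm5607 (chromosome 8, 12385771 to 12436732, RefSeq symbol Sox1ot) is a noncoding transcript whose span holds the Sox1 gene on the same strand. Its level was 170.5 and 153 CPM in Sst+Nic, against 1 count, 2 counts and 0 counts in the Thy1+Nic libraries. Over the pooled counts the ratio was 590.0 (exact 95% counting interval 201 to 2865), with an adjusted p of 0.0236 in edgeR, the smallest of the named entries. Sox1 itself (chromosome 8, 12395519 to 12399555), a transcription factor of the SoxB family, had 214 and 156 CPM in Sst+Nic, and 2.88, 0 and 0 CPM in Thy1+Nic. Its groups did not overlap either, but its log2 fold change of 7.06 ± 1.27 (SE) gave an adjusted p of 0.0716 in edgeR and Sox1 was not a DEG. In the annotation used here (GENCODE vM21) the exons of Gm5607 and Sox1 share no base.

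Masp1 (chromosome 16, 23451785 to 23521240), which encodes a serine protease of the lectin pathway of complement, had 122 and 62.5 CPM in Sst+Nic and 1, 0 and 0 counts in Thy1+Nic. The ratio of pooled CPM was 940 with an exact 95% counting interval from 168 to 37180, since it rests on 1 count (adjusted p = 0.0321, edgeR). Dgkg (22466568 to 22657302 on the same chromosome) encodes diacylglycerol kinase gamma, an enzyme that turns the second messenger diacylglycerol into phosphatidic acid. Dgkg was at 1677 and 1258 CPM in Sst+Nic and at 269, 237 and 316 CPM in Thy1+Nic, so that it was well measured in both cell types. Its exons share 74 bases with Gm15651 on the other strand, and whether the counting used strand is not given in the sources used here. Its log2 fold change was 1.92 ± 0.26 (SE, adjusted p = 0.0326 by edgeR). Gm3375 (chromosome 7, 3181089 to 3181959) is annotated as a processed pseudogene, and its fragments may belong to a near-identical copy elsewhere. It had 691 and 532 CPM in Sst+Nic, and 102, 77.5 and 73.9 CPM in Thy1+Nic (log2 fold change 2.33 ± 0.32 SE, adjusted p = 0.0339 by edgeR).

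Among the genes lower in Sst+Nic, Rin1 and Bcl6 were close to absent from Sst-neurons, whereas Fam131a, Plcxd2 and Dlg1 were measured in both cell types. Rin1 (chromosome 19, 5049999 to 5057071), a Ras effector that activates Rab5 and is known from forebrain excitatory neurons, had 1.03 and 3.07 CPM in Sst+Nic (3 and 15 counts) and 76.3, 116 and 72.5 CPM in Thy1+Nic. Its log2 fold change was -5.82 ± 0.77 (SE, adjusted p = 0.0326 by edgeR). Bcl6 (chromosome 16, 23965050 to 23988866), a transcriptional repressor, had 2.06 and 4.71 CPM in Sst+Nic and 68.2, 105 and 83.7 CPM in Thy1+Nic, a log2 fold change of -5.08 ± 0.69 (SE, adjusted p = 0.0326 by edgeR). In both genes the lowest Thy1+Nic library stood over 10 times above the higher Sst+Nic library.

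Fam131a (chromosome 16, 20693094 to 20703044), a gene of little known function, had 174 and 219 CPM in Sst+Nic and 1044, 1007 and 923 CPM in Thy1+Nic. The log2 fold change was -2.83 ± 0.35 (SE, adjusted p = 0.0326 by edgeR). Plcxd2 (45959261 to 46010413), named for a phospholipase C-like domain, had 103 and 86.1 CPM in Sst+Nic and 345, 639.7 and 507 CPM in Thy1+Nic, with a log2 fold change of -2.92 ± 0.41 (SE, adjusted p = 0.0339 by edgeR). Dlg1 (31663443 to 31873356), which encodes the synaptic scaffold protein SAP97, had 81.3 and 99.6 CPM in Sst+Nic against 273, 364 and 398 CPM in Thy1+Nic. At -2.41 ± 0.37 (SE, adjusted p = 0.0443 by edgeR) it was the named DEG closest to the threshold, and the next named entry, ATP8, missed it at 0.0561.

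**Figure D1:**
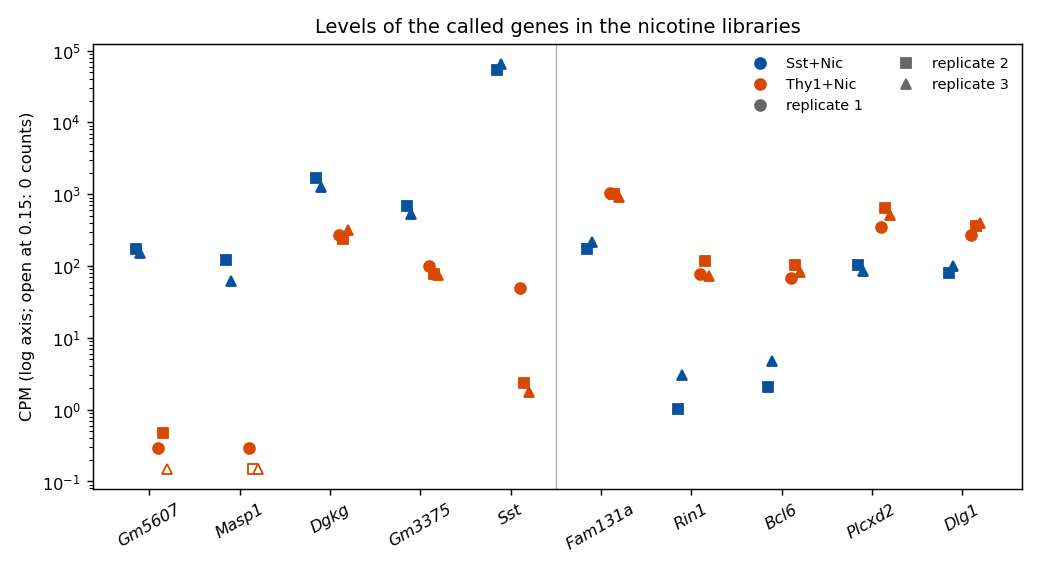
CPM of the 10 named DEGs (x axis) in each nicotine library on a log axis, Sst+Nic in blue and Thy1+Nic in orange, with a marker shape for each replicate and open markers for 0 counts. The genes left of the line are higher and those right of it lower in Sst+Nic, and the groups do not overlap for any of the 10.

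The number of calls depended on the libraries fitted and on the test. With 1 Thy1+Nic library left out, 1, 0 and 0 of the named entries were DEGs (without replicates 1, 2 and 3 in this order), whereas DESeq2 called 80 with all 5. Without Sst+Nic replicate 2 there were 2 and without replicate 3 there were 15, but these fits hold 1 Sst+Nic library and take its spread from the Thy1+Nic libraries. None of the 10 genes changed direction, which is no separate check, since they were selected in these same libraries. Without Thy1+Nic replicate 3 their adjusted p-values lay between 0.0589 (Gm5607) and 0.0903 (Dlg1, edgeR). Of the 10 alternatives that kept all 5 nicotine libraries, Sst passed in 10 of 10, Gm5607, Fam131a, Dgkg and Gm3375 in 9, and Masp1, Rin1, Bcl6, Plcxd2 and Dlg1 in 8.

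**Figure D2:**
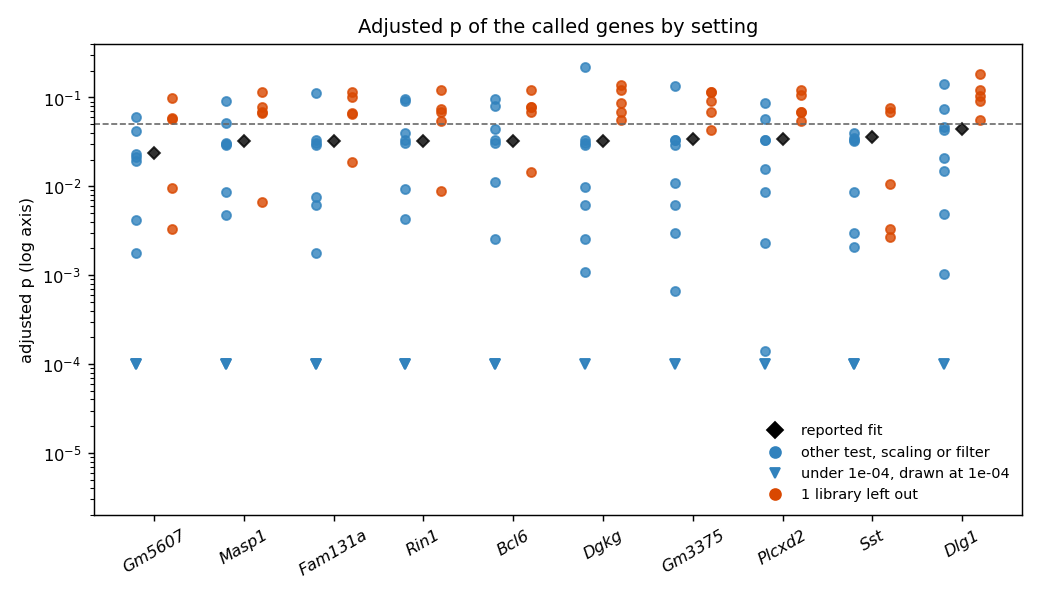
Adjusted p of the 10 named DEGs (x axis) on a log axis, with the reported edgeR fit as black diamonds, other tests, scalings and filters in blue and fits with 1 library left out in orange. The dashed line marks 0.05, values under 1e-04 are drawn at 1e-04 as triangles, and most orange points lie above the line.

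In the saline-treated mice, which share no library with the nicotine mice, the difference between the cell types had the same direction for all 10 genes. Of these 10, 8 were DEGs there too, beside 1.72% of the 6350 entries tested under saline, and Masp1 (adjusted p = 0.1002, edgeR) and Sst (adjusted p = 0.308, edgeR) were not. Thy1 replicate 3 of the saline group held 3795 CPM of Sst and 3.29 CPM of Masp1, where Thy1 replicate 2 held 1.15 and 0 CPM, and no Thy1+Nic library held over 49.2 CPM of Sst. Without Thy1 replicate 3, an alternative chosen after seeing the data that leaves 1 Thy1 library, 7 of the 10 passed in edgeR, while Dgkg (adjusted p = 0.0503), Gm3375 (0.0640) and Dlg1 (0.0549) did not. That fit takes the spread of the lone Thy1 library from the Sst libraries. Its values for Sst (adjusted p = 0.00668, edgeR) and Masp1 (0.0277) are no test of these genes, since the library was left out for the Sst it held. Across the 536 named entries tested in both, the log2 fold changes after nicotine and under saline correlated at r = 0.627 (Spearman's rho 0.570), given as a description since the entries share libraries.

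**Figure D3:**
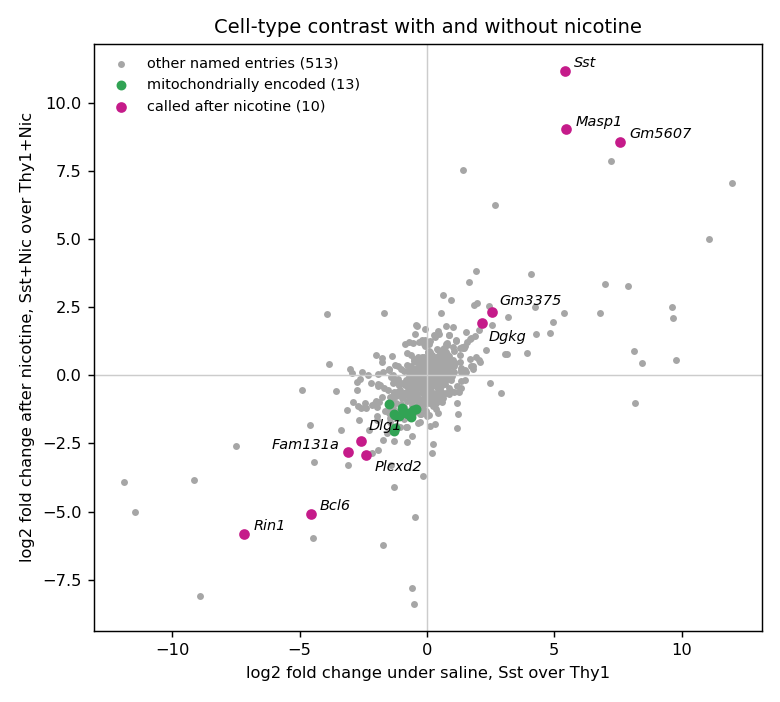
log2 fold change of Sst- over Thy1-neurons under saline (x axis) and after nicotine (y axis) for the 536 named entries tested in both, with the 10 DEGs after nicotine in magenta and the 13 mitochondrially encoded genes in green. All 10 DEGs and all 13 mitochondrially encoded genes have the same sign on both axes.

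For the test of whether nicotine changed the difference between the cell types, all 10 libraries were fitted together. edgeR called 0 of 8242 entries (605 at an unadjusted p under 0.05), and 0 of the 612 named ones (55 at an unadjusted p under 0.05). The lowest adjusted p among the 10 named DEGs was 0.672, for Sst, whose interaction was 5.79 ± 2.32 (SE) with the saline library that holds Sst fragments included. Without a filter on low counts, edgeR called 36 entries for the interaction, and 5 of these were named ones, Sst, Shisa9, Rwdd2b, Rtn4r and Aldh3b2. In that fit the interaction for Sst was again 5.79, with an adjusted p of 1.68e-90 (edgeR). That fit again included Thy1 replicate 3, the saline library that holds Sst fragments. Without that library, the Sst log2 fold change under saline was 16.2, against 5.41 with it and 11.19 after nicotine. The sign of the Sst interaction thus depends on that library, and a nicotine effect on the Sst difference is not shown. DESeq2 called 7 entries, of which Nde1, Rwdd2b and Cldn5 were named ones. The genes named here from both alternatives were chosen after their values were seen. Cldn5 had 0 and 13.1 CPM in Sst+Nic and 12.1, 0 and 7.36 CPM in Thy1+Nic, with 1 Sst+Nic and 1 Thy1+Nic library at 0. Of the 27 named entries that were DEGs under saline, 26 had the same direction after nicotine and 8 were DEGs, and the exception was Rwdd2b (log2 fold change 8.16 under saline and -1.002 after nicotine).

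Several of those 27 kept large but uncalled differences after nicotine. Camk2n2, which encodes an inhibitor of the kinase CaMKII, was listed with the pyramidal genes but was higher in Sst-neurons. It had 122 and 116 CPM in Sst+Nic and 20.2, 10.9 and 13.6 CPM in Thy1+Nic (log2 fold change 2.50 ± 0.49 SE, adjusted p = 0.0838 by edgeR), against 4.25 (adjusted p = 0.0166, edgeR) under saline. Ctxn1, which encodes a small neuronal membrane protein, had 142 and 249 CPM in Sst+Nic and 1898, 1350 and 544 CPM in Thy1+Nic, with a log2 fold change of -3.20 ± 0.66 (SE, adjusted p = 0.0979 by edgeR). The spread among the Thy1+Nic libraries was wide for Ctxn1, yet the groups did not overlap.

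Rtn4r, the Nogo receptor, which limits axon growth, and Shisa9, an auxiliary AMPA receptor subunit, had like patterns across the Sst libraries. Rtn4r had 0 and 3.48 CPM in Sst+Nic, 59.9, 48.4 and 28.9 CPM in Thy1+Nic, and 0 counts in all 3 saline Sst libraries. Shisa9 had 0 and 15.4 CPM in Sst+Nic, 65.4, 141 and 57.4 CPM in Thy1+Nic, and likewise 0 counts under saline in Sst. In both genes Sst+Nic replicate 3 was the 1 Sst library of 5 with a count, and the adjusted p was 0.146 for Rtn4r and 0.247 for Shisa9 (edgeR). Neither was a DEG after nicotine.

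All 13 protein-coding genes of the mitochondrial genome, core subunits of the respiratory chain and of ATP synthase, were measured at lower levels in Sst+Nic than in Thy1+Nic, but none reached the threshold in edgeR. Their log2 fold changes ran from -2.04 to -1.06 with a median of -1.41 (standard errors 0.29 to 0.48, adjusted p 0.0561 to 0.273), where the median of all entries was 0.09. All 13 had an unadjusted p under 0.05, beside 8.14% of all entries in this direction, and in 11 of 13 the groups did not overlap in CPM, beside 8.66% of all entries. The 13 transcripts come from 1 genome and are processed from shared precursors, so that they do not count as 13 independent measurements.

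The subunits of complex V stood lowest. ATP8 had 680.4 and 723 CPM in Sst+Nic and 2063, 2313 and 1688 CPM in Thy1+Nic (log2 fold change -2.04 ± 0.34 SE, adjusted p = 0.0561 by edgeR), and ATP6, whose reading frame overlaps it, had 11355 and 13619 against 32801, 38787 and 29553 CPM (log2 fold change -1.94 ± 0.33 SE). Of the core subunits of cytochrome c oxidase (complex IV), COX3 had 32096 and 43974 CPM in Sst+Nic and 78778, 82261 and 76672 CPM in Thy1+Nic, with a log2 fold change of -1.54. COX1 and COX2 stood at -1.39 and -1.40, and CYTB, the mitochondrially encoded subunit of complex III, at -1.29. In each of these 6 genes every Sst+Nic library lay below every Thy1+Nic library.

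The 7 complex I subunits had a median log2 fold change of -1.41. ND1 had 18764 and 21068 CPM in Sst+Nic and 32115, 41894 and 39324 CPM in Thy1+Nic (log2 fold change -1.42 ± 0.30 SE, adjusted p = 0.0979 by edgeR). ND6, the gene encoded on the other strand, stood at -1.41, ND2 at -1.45, ND4L at -1.48 and ND4 at -1.19. ND5 and ND3 were the exceptions whose groups overlapped. ND5 had 9367 and 7891 CPM in Sst+Nic, while Thy1+Nic replicate 1 had 7984 beside 17990 and 11197, and ND3 had 1893 CPM in Sst+Nic replicate 3 and 1500 in Thy1+Nic replicate 3.

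**Figure D4:**
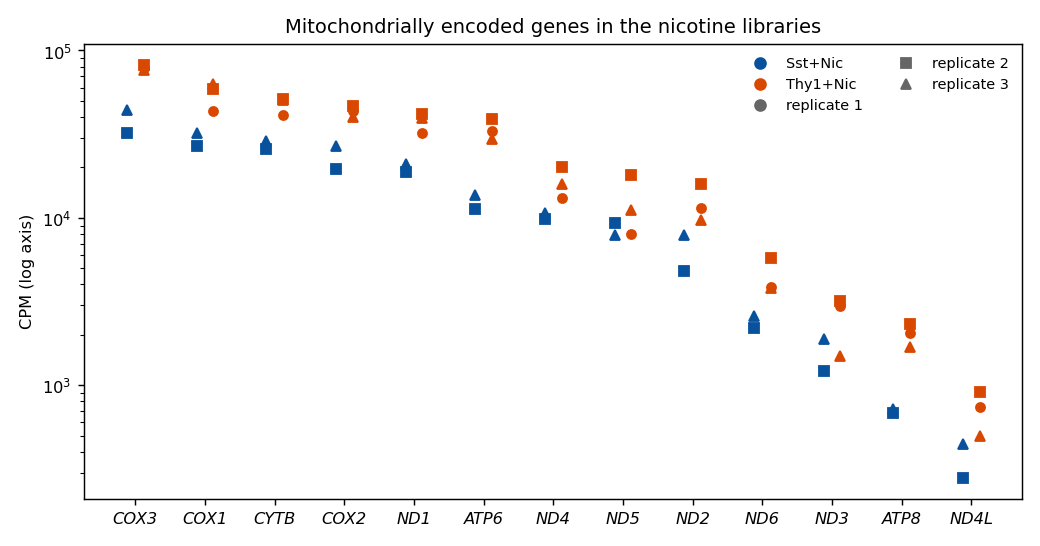
CPM of the 13 mitochondrially encoded genes (x axis, ordered by mean CPM) on a log axis in each nicotine library, Sst+Nic in blue and Thy1+Nic in orange with a marker shape for each replicate. Every orange marker lies above every blue one except for ND5 and ND3.

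As a share of all counted fragments, the 13 genes took 16.3% and 19.8% in Sst+Nic (mean 18.1 ± 2.52, SD, n = 2) and 31.4%, 38.5% and 34.3% in Thy1+Nic (mean 34.8 ± 3.57, SD, n = 3). Sst+Nic minus Thy1+Nic was -16.7 points, with a two-sided exact permutation p of 0.2, the smallest that 2 against 3 libraries can give. Sst alone took 5.38% and 6.46% of the fragments in Sst+Nic, and with Sst left out of the totals the shares were 17.2% and 21.2% and the difference -15.6 points. Under saline the shares were 21.2% to 22.1% in Sst and 31.7% and 35.7% in Thy1, and the median log2 fold change was -1.08 for complex I and -0.75 for the other 6 genes. Under saline 3 of the 13, ATP6, ND6 and ND5, were DEGs (adjusted p = 0.0483, 0.0498 and 0.0262, edgeR), beside 1.72% of all entries under saline, whereas after nicotine 0 were, beside 0.507%. The call depended on the test, the filter and the libraries fitted. DESeq2 called 11 of the 13 after nicotine, beside 7.62% of all entries it tested, and limma voom 7, beside 0.999%. edgeR called 13 without a filter (beside 2.65% of entries), 11 with a filter of 10 counts in a library (2.91%), 9 when all 10 libraries were fitted together (1.27%) and 2 with the named entries alone (3.84%). The median log2 fold change was -0.90 without TMM, where the median of all entries stood at 0.59. The distance between these medians was -1.50 in both scalings, since scaling moves all entries by nearly the same amount.

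Nuclear genes of the respiratory chain are few in the named stretches. Of 4 tested, 0 were DEGs, 3 had an unadjusted p under 0.05 in the lower direction, beside 8.14% of all entries, and the median log2 fold change was -1.08. Ndufs8, an iron-sulfur subunit of complex I, had 918 and 833 CPM in Sst+Nic and 1886, 1034 and 1799 CPM in Thy1+Nic (log2 fold change -1.33 ± 0.32 SE, adjusted p = 0.127 by edgeR). Ndufb4 stood at -1.18 and Cox17, a copper chaperone for complex IV, at -0.99 (adjusted p = 0.213 and 0.232, edgeR). Ndufv1, the subunit that binds NADH, had 1463 and 1094 CPM against 915, 1023 and 1705 CPM, with overlapping groups and a log2 fold change of -0.41 that turned to 0.08 without TMM. Under saline these 4 had a median of -0.25 and 0 DEGs. Of 15 genes of mitochondrial import, dynamics and metabolism, 0 were DEGs, beside 0.507% of all entries, and the median was -0.14. Smallest in p were Mrpl11 (-0.89, adjusted p = 0.228), Mrpl40 (-0.76, 0.282), Mrpl49 (-0.58, 0.454) and Timm44 (-0.79, 0.513, edgeR).

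Of the 10 named DEGs, 6 were on the lists of interneuron and pyramidal neuron genes, which held 5 and 8 of the 576 named entries tested. Among all entries tested, 0.23% were called higher and 0.277% lower in Sst+Nic. Of 5 interneuron genes tested, 2 (Sst and Masp1) were DEGs, all 5 stood higher in Sst+Nic and the median log2 fold change was 7.06. Grik1, which encodes a kainate receptor subunit, had 125 and 81.4 CPM in Sst+Nic and 10.4, 0 and 6.48 CPM in Thy1+Nic (log2 fold change 3.71 ± 1.22 SE, adjusted p = 0.226 by edgeR). Chodl, a marker of a long-range Sst cell type, had 0 counts in both Sst+Nic libraries and 1 count in Thy1+Nic replicate 1, and was not tested. Of 8 pyramidal neuron genes, 4 (Fam131a, Rin1, Bcl6 and Plcxd2) were DEGs lower in Sst+Nic, and the median was -2.87. The other way stood 2 of the 8, Camk2n2, given above, and Grin2a, named here after its values were seen. Grin2a, which encodes an NMDA receptor subunit, had 56.6 and 67.2 CPM in Sst+Nic and 16.1, 23.4 and 15.9 CPM in Thy1+Nic, with a log2 fold change of 1.23 ± 0.56 (SE, adjusted p = 0.342 by edgeR). Both lists were chosen with earlier results of these data known, so that the counts and medians describe the lists and do not test them.

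Glutamate receptor, auxiliary subunit and scaffold genes had 1 DEG of 8, Dlg1 (0.507% of all entries were DEGs), and a median of 0.11, with Grik1 and Camk2n2 higher and Shisa9 lower as given above. In the list of diacylglycerol kinase and small GTPase regulators, Dgkg and Rin1 were DEGs in opposite directions and 13 of 15 were not DEGs (median 0.09), beside 0.23% of all entries called higher and 0.277% lower. Cdc42ep2, a Cdc42 effector, had 119 and 165 CPM in Sst+Nic and 13.8, 23.2 and 57.2 CPM in Thy1+Nic (1.76, adjusted p = 0.231, edgeR), and Acap2, an Arf GTPase activator, stood at -1.12 (adjusted p = 0.228, edgeR). Neuropeptide, monoamine and cyclic AMP genes held 1 DEG of 5, Sst, beside 0.507% of all entries, and 1 was higher and 2 lower at an unadjusted p under 0.05, beside 7.64% and 8.14%. Comt1, the entry of catechol-O-methyltransferase, which breaks down dopamine and noradrenaline, had 279 and 196 CPM in Sst+Nic and 428, 307 and 494 CPM in Thy1+Nic (log2 fold change -1.29 ± 0.31 SE, adjusted p = 0.127 by edgeR). The adenylyl cyclases Adcy9 and Adcy5 stood at -1.18 and -1.13 (adjusted p = 0.282 and 0.589, edgeR).

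Of 18 axon guidance and adhesion genes, 0 were DEGs (1 higher and 3 lower at an unadjusted p under 0.05, beside 7.64% and 8.14% of all entries), and the median was 0.15. Gap43, a growth cone protein, had 2429 and 2289 CPM in Sst+Nic and 5931, 4157 and 5249 CPM in Thy1+Nic. Its log2 fold change of -1.61 ± 0.28 (SE, adjusted p = 0.0628 by edgeR) was among the closest to the threshold, and under saline it was -0.92 (adjusted p = 0.0875, edgeR). Lsamp, an adhesion protein of the limbic system, stood the other way at 690 and 343 CPM in Sst+Nic and 178, 58.1 and 96.0 CPM in Thy1+Nic (1.68, adjusted p = 0.200, edgeR). Efnb2, an ephrin ligand, stood at -0.93 (adjusted p = 0.259, edgeR).

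Of 21 transcription factors, Bcl6 was the 1 DEG (beside 0.507% of all entries), 3 were higher and 4 lower at an unadjusted p under 0.05 (beside 7.64% and 8.14%) and the median was -0.28. Hes1, a Notch target also expressed in astrocytes, had 2.06 and 6.97 CPM in Sst+Nic and 72.0, 50.1 and 51.3 CPM in Thy1+Nic (log2 fold change -4.08 ± 0.78 SE, adjusted p = 0.0809 by edgeR), while under saline its log2 fold change was -1.31 (adjusted p = 0.537, edgeR). The interaction for Hes1 was -2.78 ± 1.12 (SE, adjusted p = 0.672 by edgeR), so that a change of the difference with nicotine was not shown. Etv5, an ETS factor, had 92.3 and 122.8 CPM against 161, 415 and 353 CPM (-2.01, adjusted p = 0.138, edgeR), and Mkl2, a coactivator of serum response factor, stood at -1.09 (adjusted p = 0.151, edgeR).

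The cytoskeleton and axonal transport list had no DEG among 15 genes in edgeR, but 8 had an unadjusted p under 0.05, all lower in Sst+Nic (8.14% of all entries did so), and the median was -0.88. Mylk, myosin light chain kinase, had 0 counts in both Sst+Nic libraries and 54.7, 9.45 and 11.8 CPM in Thy1+Nic (adjusted p = 0.0979, edgeR). The Thy1+Nic mean was 24.6 times the highest limit of 3 counts in a Sst+Nic library. That mean is carried by Thy1+Nic replicate 1, and the ratio is smaller for replicates 2 and 3. Ift57, of intraflagellar transport, stood at -1.62 (adjusted p = 0.149), Klc2, a kinesin light chain, at -1.17 (0.213), and Cfl1, which encodes the actin-severing protein cofilin, at -0.85 (0.254, edgeR). Cfl1 had 7329 and 6030 CPM in Sst+Nic and 11169, 6358 and 7794 CPM in Thy1+Nic, with overlapping groups.

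Vesicle traffic, fusion and endosome genes had 0 DEGs of 16 and a median of -0.30, and 3 were lower and 0 higher at an unadjusted p under 0.05, beside 8.14% and 7.64% of all entries. Sept5, a septin of presynaptic terminals, had 302 and 257 CPM in Sst+Nic and 590.3, 515 and 335 CPM in Thy1+Nic (-1.31, adjusted p = 0.193, edgeR), with 1902 of its exon bases shared with Gp1bb. Stxbp2 stood at -2.21, Syt12 at -1.47 and Chmp2b at -0.78 (adjusted p 0.223, 0.255 and 0.349, edgeR). The clathrin adaptor subunit Ap2m1, with the highest mean CPM of the list, had 7567 and 3887 CPM against 2962, 2563 and 4818 CPM (0.22, adjusted p = 0.881, edgeR), and turned to -0.18 without Sst+Nic replicate 2.

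Ion channel, channel modulator and GABA metabolism genes had 0 DEGs of 8, beside 0.507% of all entries (median 0.05). Abat, GABA transaminase, which breaks down GABA, had 1218 and 973 CPM in Sst+Nic and 160.4, 231 and 388 CPM in Thy1+Nic (log2 fold change 1.59 ± 0.36 SE, adjusted p = 0.111 by edgeR), close to its 1.55 under saline. Clcn2, a chloride channel gene whose exons share 85 bases with Fam131a on the other strand, stood at -0.98 (adjusted p = 0.467, edgeR). Fgf12, a modulator of sodium channels, was at 1665 and 1609 CPM against 1787, 1382 and 1552 CPM, and its -0.44 (adjusted p = 0.537, edgeR) turned to 0.06 without TMM. Atp13a5 rested on 84.9 CPM in Sst+Nic replicate 3 beside 0 in replicate 2.

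In the MAP kinase list (8 genes, 0 DEGs, median 0.19) and the insulin signalling list (6 genes, 0 DEGs, median 0.17), 1 gene of each was higher and 1 lower at an unadjusted p under 0.05, beside 7.64% and 8.14% of all entries. Gsk3b, glycogen synthase kinase 3 beta, which both lists hold, had 6173 and 2814 CPM in Sst+Nic and 809, 1716 and 1142 CPM in Thy1+Nic (log2 fold change 1.31 ± 0.42 SE, adjusted p = 0.224 by edgeR), where its log2 fold change under saline was -0.18. Map3k13 stood at 1.40, Map4k2 at 0.94, Irs2 at 0.56 and Rps6kb2 at 0.28, with adjusted p-values from 0.621 to 0.973 (edgeR).

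Ribosome and translation initiation genes had 0 DEGs of 9, beside 0.507% of all entries, and a median of -0.63. Rpl35a, a protein of the large ribosomal subunit, had 170.1 and 216 CPM in Sst+Nic and 1235, 908 and 548 CPM in Thy1+Nic (log2 fold change -2.73 ± 0.49 SE, adjusted p = 0.0678 by edgeR), and it was a DEG in the same direction under saline (-1.92, adjusted p = 0.0330, edgeR). Eif4a2, an RNA helicase of initiation, stood at 0.66, and Eif2b5 and Fau at -0.83 and -0.72 (adjusted p 0.380 to 0.448, edgeR). RNA binding and splicing genes had 0 DEGs of 11, beside 0.507% of all entries (median -0.16). Rbm4 stood at -0.90, Rbm14 at 1.07, Rbfox1 at 0.42 and Upf3a at -0.87. Lysosome and proton pump genes had 0 DEGs of 8, beside 0.507% of all entries (median 0.50). The smallest p was that of Ctsf, a lysosomal protease (0.79, adjusted p = 0.561, edgeR). Tcirg1 rested on 35.9 CPM in Sst+Nic replicate 3 beside 0 in replicate 2, and on 3.74, 0 and 0 CPM in Thy1+Nic. Cln8 and Litaf stood at 0.80 and 1.64, and Atp6v1a at -0.31, or 0.21 on totals without TMM. Malat1, a nuclear noncoding RNA, took 4.54% and 9.21% of the fragments in Sst+Nic and 4.42%, 3.44% and 3.34% in Thy1+Nic (log2 fold change 0.42, adjusted p = 0.762, edgeR), and Neat1 stood at 0.33. These were the 2 nuclear noncoding RNAs listed, with 0 DEGs, beside 0.507% of all entries, and a median of 0.37.

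**Figure D5:**
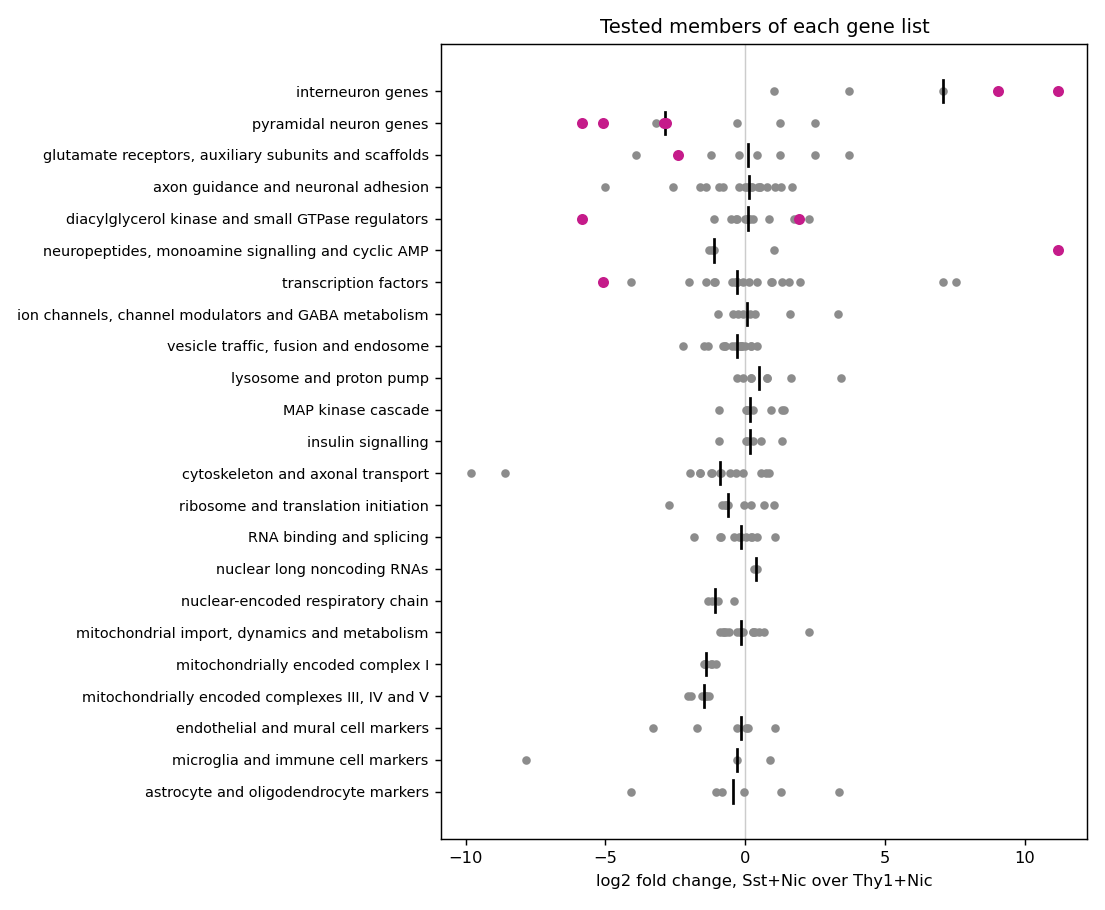
log2 fold change of Sst+Nic over Thy1+Nic (x axis) for the tested members of each gene list (y axis), with DEGs in magenta, other members in grey and the list median as a black bar. The interneuron genes lie right of 0, and the pyramidal neuron genes mostly and the mitochondrially encoded genes all lie left of it.

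Markers of other cell types were counted in both groups and held no DEG, beside 0.507% of all entries. A count of 0 among so few genes says little about the presence of such cells. The 8 endothelial and mural cell markers summed to 59.0 and 200.3 CPM in Sst+Nic and to 147, 202 and 139 CPM in Thy1+Nic, and of 6 tested the smallest adjusted p was 0.224 (Col4a2, -1.71, edgeR) and the median -0.14. Col4a1 stood at -3.31, Jam2 at 1.08 and Adamts1 at 0.03, and Cldn5, a defining tight junction gene, at -0.31, a sign that turned without TMM. The 7 microglia and immune markers with a count in any library summed to 0 and 17.0 CPM in Sst+Nic and to 55.0, 0 and 15.9 CPM in Thy1+Nic, with all 7 at 0 counts in Sst+Nic replicate 2 and Thy1+Nic replicate 2. Of 3 tested, with a median of -0.29, Tnfsf13b (0 counts in both Sst+Nic libraries, and 6.33, 0 and 14.4 CPM in Thy1+Nic) was not a DEG, Unc93b1 stood at 0.90 and Cd86 at -0.29, the last turning sign without TMM. The 6 astrocyte and oligodendrocyte markers summed to 533 and 726 CPM in Sst+Nic and to 529, 321 and 397 CPM in Thy1+Nic, the lowest Sst+Nic library lying just above the highest Thy1+Nic library. Their median log2 fold change was -0.43 with 0 DEGs of 6, and Hes1, given above, is among them. Fstl1 stood at -0.82, Slc15a2 at 3.37 and Apod, an oligodendrocyte lipocalin, at 1.28 with 259.6 and 402 CPM against 194, 88.6 and 0 CPM (adjusted p = 0.820, edgeR). The part of such cells in the differences above was not tested.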

How the data were processed

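The authors amplified cDNA from hand-picked cells with the SMARTer kit, sequenced it in paired ends and deposited raw counts of fragments for 35129 gene entries. TopHat, HTSeq and GRCm38 are named in the submitters' processing notes. Counts of 10 libraries were analysed, and 2 of the 12 described were not analysed here. The members and the gene lists were chosen with earlier results of these data known. Entries were placed on GRCm38 by RefSeq symbol (897 of 1018 nuclear entries in the named stretches) or older symbol (121).

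The quasi-likelihood test of edgeR 4.0.16 (R 4.3.3) was run on the 5 nicotine libraries, with TMM factors (0.792 to 1.35), filterByExpr (minimum count 10) and Benjamini-Hochberg adjustment over all entries tested. The saline comparison used the 5 saline libraries and the interaction all 10. Each standard error (SE) is the absolute log2 fold change over the square root of its F value. The common dispersion was 0.848. The fit was tested on simulated data for the 6509 entries of this comparison with a log2 change of 3 in 200 genes, of which 92.5% were called at a dispersion of 0.1, 40.5% at 0.4 and 0 at 0.848, each dispersion given to every gene. The share of mitochondrially encoded counts was compared by an exact, two-sided permutation test (scipy 1.17.1), and Wilson intervals were computed at 95%.

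The genes to be named were Sst, Masp1 and Rin1, every named DEG, the 13 mitochondrially encoded genes, and of each list up to 4 members with the smallest p and the member with the highest mean CPM. Of the genes that this rule selects, 1 is not reported here. The 23 lists are those whose counts the report gives. Alternatives were DESeq2 1.42.0, limma voom with quality weights (limma 3.58.1), RLE factors, totals without TMM, other filters, all libraries in 1 fit, a replicate block, mitochondrially encoded genes left out, named entries alone, dropping the fold-change threshold, and omitting each library in turn. The counts without Thy1 replicate 3 were added after seeing the data. Each library is 1 mouse, so that p-values measure the spread between mice and their 30 cells.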

Additional observations from a re-analysis of the deposited data

How the results depend on the processing

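None of the 10 named DEGs changed direction in any alternative or with any library left out. They were selected in these same libraries with groups that do not overlap, so a change of direction was hardly possible. In 96 of their 150 values under the alternatives they passed as reported, and in 54 they no longer passed. Of the values of the other named genes, 126 newly passed and 24 changed sign. Against 33 DEGs (5 named ones higher and 5 lower), DESeq2 called 496 (25 and 55), limma voom 65 (7 and 13), no filter 356 (22 and 40), a filter of 10 counts in a library 275 (19 and 33) and all libraries in 1 fit 105 (10 and 20). The totals without TMM called 24 (6 and 3), and the named entries alone 12 and 10. With 1 library left out, 0 to 56 entries were called (0 to 6 named ones higher, 0 to 9 lower). The replicate block called 9 entries (2 and 0, Sst and Sox1). Deviations from the group means correlated at 0.00965 and -0.0480 between same-numbered libraries. With 2 Sst+Nic libraries these deviations mirror each other, so the values cannot decide whether the replicate number pairs libraries. The cause of these differences in counts was not tested.

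The median of the 13 mitochondrially encoded genes was -0.90 without TMM, -1.45 with the replicate block and -1.76 to -1.10 with 1 library left out. The interaction called 0 entries in edgeR, 7 in DESeq2, 36 without a filter and 2 without Thy1 replicate 3. Without that library the saline comparison called 55 entries. With totals and no TMM the log2 fold change turned to 0.21 for Atp6v1a, 0.12 for Cd86, 0.032 for Cldn5, 0.063 for Fgf12 and 0.080 for Ndufv1. With the replicate block it was -0.69 for Adamts1, -0.071 for Atp13a5, 5.58 for Cd86 and 0.56 for Cldn5, and with limma voom -0.40 for Adamts1 and 0.65 for Cd86. With 1 library left out it ranged from -3.02 to 1.08 for Adamts1, -0.18 to 0.51 for Ap2m1, -6.66 to 4.32 for Atp13a5, -6.29 to 0.67 for Cd86 and -7.64 to 0.66 for Cldn5. The ranges were -0.38 to 0.91 for Malat1, -0.30 to 2.07 for Neat1, -0.26 to 0.76 for Rps6kb2 and -6.29 to 1.88 for Unc93b1. The cause of each sign change was not tested. A gene that missed the threshold is not shown to be alike in the cell types.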
